A study of Mus musculus with 5 samples.

Results

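The peaks described here are those of WT1 at 3 genes of the mesothelium and of epithelial-mesenchymal transition, Snai1, Cdh1 and Aldh1a2. WT1 was mapped by CUT&RUN, in which an antibody bound to chromatin of permeabilised cells brings in a nuclease that cuts out the DNA beside the protein. The cells were M15, a line of mouse mesonephric epithelium that carries the large T antigen of polyoma virus, and a line derived from M15 by genome editing for the KTS isoforms of WT1, which the labels call KTS-minus. Each line gave 2 libraries made with the same WT1 antibody, and both lines share the large T transformation and the culture conditions. The labels do not say which WT1 isoform the edited cells still make, whether KTS-minus is 1 clone, or whether the replicates are separate cultures, and their spread may therefore be technical. An IgG library of M15 cells was not analysed here.

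Members were chosen by position: every peak that overlapped 1 of 3 windows of the mouse genome build mm9. The windows were chr2:167310000-167420000 for Snai1 (110 kb), chr8:109080000-109240000 for Cdh1 (160 kb) and chr9:71010000-71200000 for Aldh1a2 (190 kb). They held 187 of the 622792 peaks listed in the series. When peaks of different libraries that shared at least 1 bp were merged, these became 126 of 455287 regions.

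WT1 is a zinc-finger transcription factor made in mesothelium, epicardium, and the developing kidney and gonad. Alternative splicing decides whether KTS, the residues lysine, threonine and serine, separates the final pair of zinc fingers, and the form that lacks them is best known for sequence-specific DNA binding. Snai1 encodes Snail, a zinc-finger repressor that switches off epithelial genes during epithelial-mesenchymal transition. Cdh1 encodes E-cadherin, the adhesion molecule of epithelial junctions and a classic target of Snail. Aldh1a2 encodes RALDH2, the enzyme that makes retinoic acid from retinaldehyde in embryonic mesoderm, epicardium and mesothelium. WT1 has been tied to all 3 genes in work on mesothelium and epicardium.

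A window is wider than its gene, so a peak in it need not belong to that gene. In the RefSeq gene table of the later assembly GRCm38.p6, Snai1 is 4620 bp long, which would fill 4.2% of its window. Cdh1 (66898 bp) and Aldh1a2 (80455 bp) would fill 41.8% and 42.3%. The nearest protein-coding neighbours there are Rnf114 and Ube2v1 for Snai1, Cdh3 and Tango6 for Cdh1, and Aqp9 and Polr2m for Aldh1a2. Peaks were placed in mm9 only, and none was assigned to a promoter, exon or intron.

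The sequence just upstream of 2 of the genes is shown with any matches to a WT1-type motif. The RefSeq promoter table, also GRCm38.p6, gave the 250 bases before the start of 2 of the genes, both on the plus strand. The Snai1 stretch is chr2:167537945-167538194 and the Aldh1a2 stretch chr9:71215539-71215788. These coordinates cannot be set beside the mm9 peak positions. Capitals mark matches, on either strand, to GNGNGGGNG, a loose form of the G-rich site of the WT1 and EGR family.
Snai1: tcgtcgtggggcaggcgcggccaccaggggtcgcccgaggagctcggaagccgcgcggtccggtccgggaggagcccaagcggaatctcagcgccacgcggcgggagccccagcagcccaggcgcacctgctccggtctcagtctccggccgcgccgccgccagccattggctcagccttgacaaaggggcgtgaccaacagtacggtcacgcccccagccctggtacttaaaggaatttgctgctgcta
Aldh1a2: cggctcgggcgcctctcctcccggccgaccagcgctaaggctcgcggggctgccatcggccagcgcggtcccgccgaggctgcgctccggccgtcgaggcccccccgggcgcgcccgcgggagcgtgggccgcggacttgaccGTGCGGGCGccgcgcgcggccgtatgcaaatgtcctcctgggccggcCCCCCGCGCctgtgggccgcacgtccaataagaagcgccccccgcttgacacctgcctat
The Aldh1a2 stretch held 2 matches, 1 on each strand, and the Snai1 stretch 0. Of all 32851 promoter entries, 35.8% held at least 1 match in the same 250 bases. The stricter GCGTGGGNG, which is contained in the looser motif, was found in 1.65% of entries and in neither of these. A match is a description of the letters and shows no binding. The stretches were 70.0% (Snai1) and 77.6% (Aldh1a2) G and C.

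Of the 3 genes, Snai1 was the one whose window held peaks in both M15 libraries, and it held the 2 regions found in all 4 lists. These regions rest on overlapping whole peaks of whole lists: 1 was left with a 50% reciprocal overlap, and 0 with only the stretches of highest signal, with the 50% of each list highest in total signal, or with lists of equal length. The Cdh1 and Aldh1a2 windows held M15 peaks in replicate 2 only, and none of these was among the 6440 strongest of that list. In KTS-minus all 3 windows held peaks in both libraries, 17 to 38 per window and library.

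**Figure D1:**
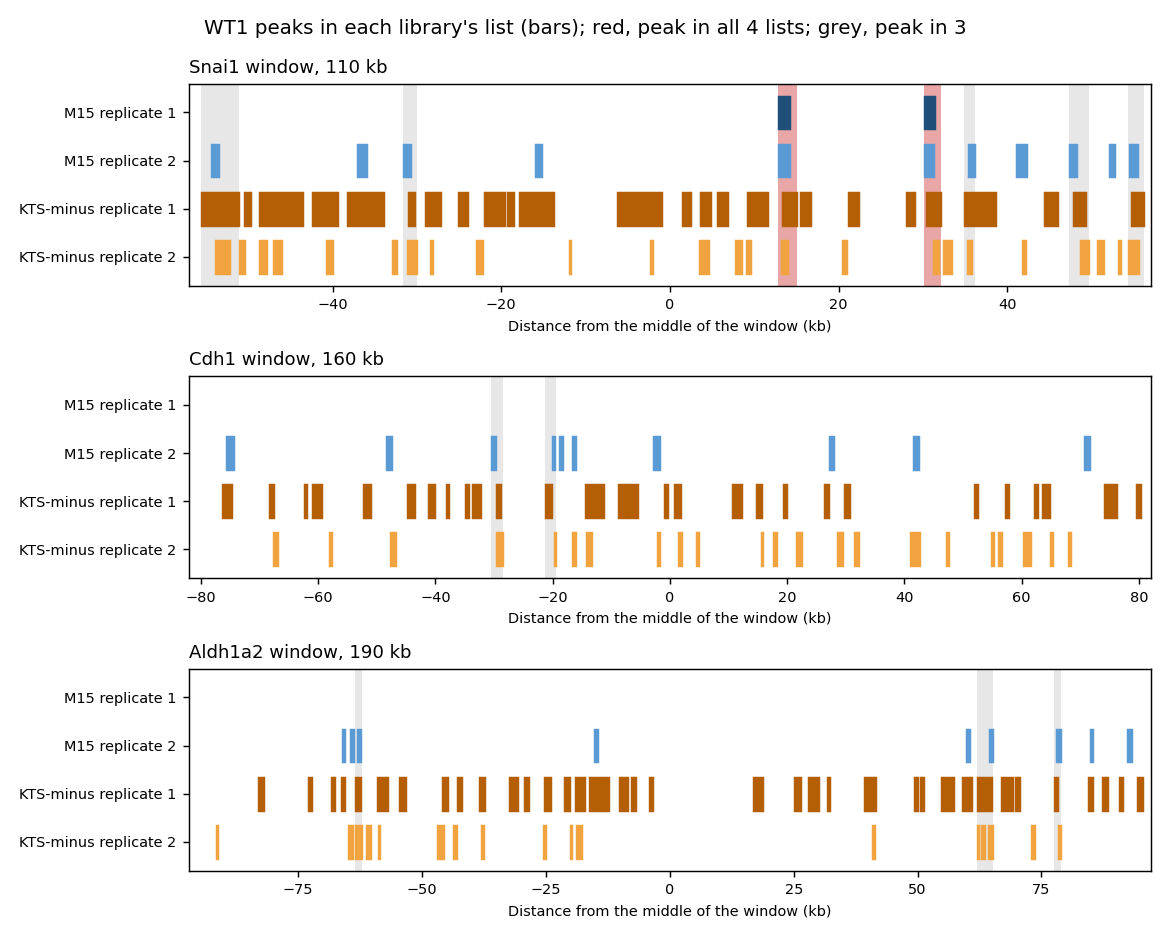
Peaks of each library (bars, to scale) along the 3 windows, by distance in kb from the middle of the window; rows are the 4 libraries. Red bands mark the 2 regions with a peak in all 4 lists, both at Snai1, and grey bands regions with a peak in 3 lists; the M15 replicate 1 row is empty at Cdh1 and Aldh1a2.

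The lists differed widely in length, and the counts at a locus have to be read against that. They held 6440 and 60925 peaks in M15 replicates 1 and 2, and 310999 and 244428 in KTS-minus replicates 1 and 2. Over the 3 windows together M15 replicates 1 and 2 had 2 and 30 peaks, KTS-minus replicates 1 and 2 had 92 and 63. M15 averaged 16 ± 19.8 peaks (SD, n = 2) and KTS-minus averaged 77.5 ± 20.5 (SD, n = 2). The ratio was 4.84 here and 8.25 for whole lists. The SDs of both lines were of like size, but as a fold the KTS-minus replicates differed 1.46 times and the M15 counts were 2 and 30. The smallest p that an exact permutation of 4 libraries in 2 lines allows is 0.333, and the lines were therefore not tested against each other.

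At Snai1 the lists held 2 and 11 peaks in M15 replicates 1 and 2, and 26 and 24 in KTS-minus replicates 1 and 2. At Cdh1 the M15 lists held 0 and 10 peaks, the KTS-minus lists 28 and 22. At Aldh1a2 the M15 lists held 0 and 9 peaks, the KTS-minus lists 38 and 17. Both KTS-minus counts lay above both M15 counts at every one of the 3 loci, which is the usual order in these lists. Among all windows of the same width along the genome, 91% of those as wide as the Snai1 window had that order, as did 94% at the Cdh1 width and 94.8% at the Aldh1a2 width.

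An empty window in M15 replicate 1 is common. Only 20.1% of all windows as wide as that of Cdh1 held a peak of this list, and 22.2% of those as wide as that of Aldh1a2. The share was 15.8% at the Snai1 width. In M15 replicate 2 the shares of such windows with a peak were 61.4%, 69.6% and 73.5% at the Snai1, Cdh1 and Aldh1a2 widths. In KTS-minus they were 95.6%, 96.7% and 96.9% in replicate 1 and 95.7%, 96.7% and 96.8% in replicate 2. A KTS-minus peak somewhere in a window of this size is therefore usual.

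The excess of peak density over the chromosome was largest at Snai1 in M15. The Snai1 window held 18.2 peaks per Mb in M15 replicate 1, against 2.24 on the whole of chromosome 2, a ratio of 8.10. In M15 replicate 2 it held 100.0 peaks per Mb against 17.6, a ratio of 5.68. In KTS-minus it held 236 against 142 peaks per Mb in replicate 1 and 218 against 93.4 in replicate 2, ratios of 1.67 and 2.34. The M15 replicate 1 ratio rests on 2 peaks.

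The Snai1 window was thus among the fuller ones of its size in each list. In M15 replicate 1, 2.77% of all windows of that width held more peaks, in M15 replicate 2 4.60%, and in KTS-minus 11.9% and 5.26%. On chromosome 2 alone the shares were 1.69% and 0.787% in M15 replicates 1 and 2, and 10.4% and 0.545% in KTS-minus replicates 1 and 2.

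Cdh1 and Aldh1a2 had lower ratios than Snai1 in every list. M15 replicate 1 listed no peak in either window, where chromosomes 8 and 9 held 3.32 and 2.81 peaks per Mb. In M15 replicate 2 the Cdh1 window held 62.5 peaks per Mb against 28.7 on chromosome 8 (ratio 2.18), and the Aldh1a2 window 47.4 against 19.0 on chromosome 9 (ratio 2.49). In KTS-minus the Cdh1 ratios were 1.17 and 1.27. The Aldh1a2 ratios were 1.33 and 0.92, so the replicates fell on opposite sides of the chromosome's own density. In KTS-minus replicate 2, 42.0% of all windows as wide as that of Aldh1a2 held more peaks.

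**Figure D2:**
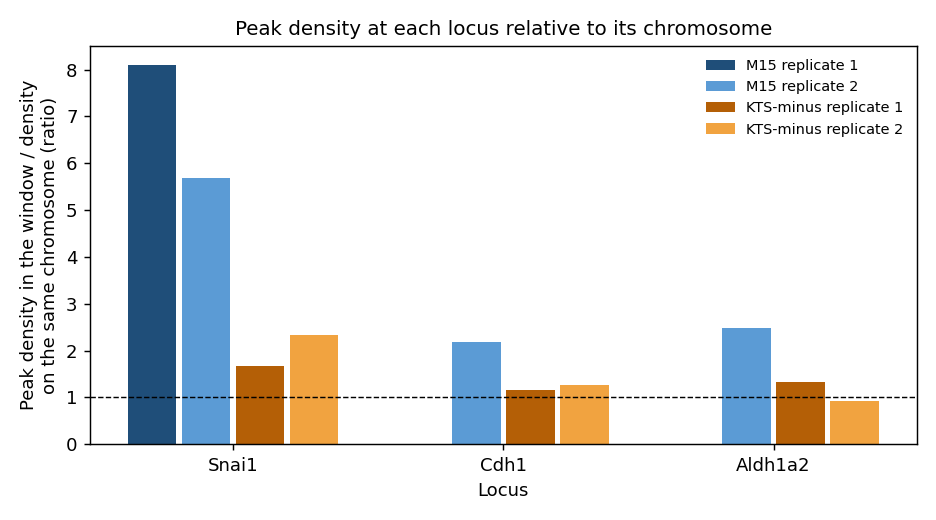
Number of peaks per Mb in each window divided by the number per Mb on the same chromosome, for each of the 4 libraries; the dashed line marks equal density. Snai1 reached 8.10 and 5.68 in the M15 libraries, M15 replicate 1 has no bar at Cdh1 and Aldh1a2 because it listed no peak there, and KTS-minus stayed between 0.92 and 2.34.

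The leading Snai1 site was the region chr2:167377770-167380095, 2326 bp wide and 13.9 kb from the middle of the window. Its peaks had a max signal, the highest coverage inside the peak in the list's own units, of 27 and 25 in M15 replicates 1 and 2. In KTS-minus replicates 1 and 2 they had 10 and 26. These units have no common scale between libraries, so each value was ranked inside its own list.

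Places in lists of different length are a description of each list and cannot be compared between them. The site was the highest of the 11 Snai1 peaks in M15 replicate 2 and stood 1.62% from the top of that list (rank 887). In the shorter list of M15 replicate 1 it stood 70.6% from the top, below that list's median max signal of 35. In KTS-minus it stood 83.8% from the top in replicate 1 and 27.9% in replicate 2. Each list was also cut to its 6440 strongest peaks, the length of the shortest, so that M15 replicate 1 is kept whole. This site remained in both M15 libraries and in neither KTS-minus library. The cut keeps 10.6% of M15 replicate 2, and 2.07% and 2.63% of KTS-minus replicates 1 and 2. Absence from the cut KTS-minus lists is therefore usual for a peak.

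Within that site the M15 replicates also met at the summit. The stretch of highest signal covered 204 bp in M15 replicate 1, from 167378489 to 167378692, and it contained the whole 44 bp stretch of replicate 2, from 167378632 to 167378675. The stretch of KTS-minus replicate 1 was broad, 1115 bp from 167378559 to 167379673, and overlapped both. The 11 bp stretch of KTS-minus replicate 2, from 167378451 to 167378461, overlapped none of the others.

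The second Snai1 site, chr2:167395092-167397174, was 2083 bp wide and lay 31.1 kb from the middle of the window. Max signal there was 21 and 10 for M15 replicates, 16 and 22 for KTS-minus replicates. It stood 85.1% and 22.2% from the top in M15 replicates 1 and 2, and 26.8% and 46.1% in KTS-minus replicates 1 and 2. The 4 stretches of highest signal did not meet. Those of M15 lay at 167395535-167395543 and 167395775-167395779, and those of KTS-minus at 167396951-167396970 and 167396589-167396673. The KTS-minus replicate 2 peak began at 167396165 and reached only the far end of the M15 peaks, which ended at 167396421 and 167396300.

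**Figure D3:**
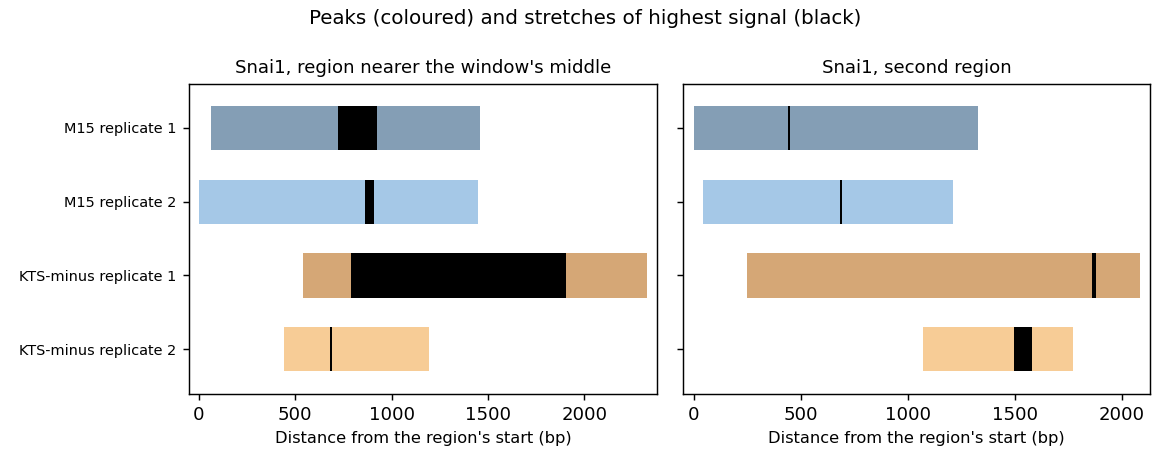
The 2 Snai1 regions with a peak in all 4 lists: coloured bars are the peaks of each library, black marks their stretches of highest signal (drawn at least 8 bp wide), and the horizontal axis is the distance in bp from the region's start. In the first region the stretches of both M15 libraries and of KTS-minus replicate 1 overlap, and in the second no stretches overlap.

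These were the 2 regions of 36 at Snai1 with a peak in both M15 lists, or 5.56%, against 1.25% of all merged regions of the series. The same 2 regions had a peak in all 4 lists, against 1.17% of all regions. With KTS-minus replicate 1 peaks covering 49.8% of the Snai1 window, against 18.3% of chromosome 2, many positions in it overlap such a peak. KTS-minus replicate 2 covered 17.0% of the window, against 6.88% of the chromosome.

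The other 9 peaks of M15 replicate 2 at Snai1 had a max signal of 5 to 10, where the list's median was 7. The highest of them, 10, crossed the edge of the window, in the region chr2:167419356-167421250, where KTS-minus replicates 1 and 2 had 16 and 28. Between 167349865 and 167377769, a gap of 27.9 kb that includes the middle of the window, M15 replicate 2 had no peak. KTS-minus replicates 1 and 2 had 6 and 5 peaks there.

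In KTS-minus the strongest Snai1 peaks by max signal lay elsewhere, and those of replicate 1 lay in other regions than those of replicate 2. In replicate 1 they were at 167374188-167376685 (max signal 29, 1.00% from the top), 167326653-167331086 (26, 1.95%) and 167314506-167315300 (25, 2.50%). In replicate 2 they were at 167400185-167400804 (47, 1.26%), 167418163-167418484 (40, 2.97%) and 167362696-167362981 (38, 3.96%). By total signal the replicate 1 peaks stood 6.13%, 1.41% and 37.9% from the top, and the replicate 2 peaks 11.7%, 27.7% and 44.3%. The strongest of replicate 1 lay in a region where replicate 2 reached 20, 57.2% from the top. The strongest of replicate 2 met a replicate 1 peak of 11, 74.0% from the top, and an M15 replicate 2 peak of 7, 64.2% from the top. The replicate 2 peak at 167362696-167362981 lay inside a replicate 1 peak of 20, 9.36% from the top. By total signal the highest of replicate 2, 167311022-167312838 (3.02% from the top), overlapped a replicate 1 peak at 2.38%. None of the 6 peaks named by max signal lay in a region held by both M15 lists. Such regions were 2 of 36 at Snai1 and 1.25% of all regions, so this is usual.

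At Cdh1, the E-cadherin gene, M15 replicate 1 listed no peak, and its nearest peaks lay 25.6 kb below and 786.4 kb above the window. The nearest region with a peak in both M15 lists was chr8:109052312-109054413, also 25.6 kb below. The 10 peaks of M15 replicate 2 had a max signal of 4 to 12, and 5 were above the list's median of 7. Their widths ran from 469 to 1334 bp, with a median of 899.5 bp against 1009 bp in the whole list.

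The highest Cdh1 peak of M15 lay at 109139933-109140401, with a max signal of 12, which put it 12.5% from the top. By total signal it stood 76.5% from the top. Beside it lay peaks at 109141059-109141802 (8) and 109143339-109143940 (9). These 3 of the 10 peaks were the most closely spaced M15 peaks of the locus. KTS-minus replicate 2 had its 2 strongest Cdh1 peaks at the first and last of them, 109140189-109140610 (max signal 42, 2.26% from the top) and 109143379-109143984 (43, 1.99%). By total signal these stood 31.5% and 15.2% from the top. KTS-minus replicate 1 had only a weak peak there, 109138618-109139940 (6, 99.9% from the top), which met the first M15 peak at its edge. The middle peak, 109141059-109141802, was met by no KTS-minus peak.

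The strongest Cdh1 peak of KTS-minus replicate 1 was at 109098867-109100572, with a max signal of 34, 0.437% from the top of its list (rank 1177). No other library had a peak in that region. Its next were at 109179355-109180013 (21, 7.14%) and 109121820-109122292 (19, 12.2%), and these too lay in regions of 1 library. Of all merged regions of the series, 78.3% held a peak of 1 library only. By total signal the strongest stood 4.96% from the top and these next peaks 67.3% and 90.6%. The third strongest of KTS-minus replicate 2 was at 109175540-109175838 (40, 2.97%), where replicate 1 reached 16, 26.8% from the top. By total signal the replicate 2 peak stood 41.0% from the top.

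The overlap of the KTS-minus replicates at Cdh1 was counted by peak and by region, with no test against the whole lists. Of the replicate 1 peaks 6 of 28 (21.4%) were met by replicate 2, against 28.8%, and of the replicate 2 peaks 6 of 22 (27.3%) were met by replicate 1, against 42.6%. Of 46 merged regions, 7 (15.2%) had a peak in both KTS-minus lists, against 18.3% of all regions. Of those 7, 2 (4.35% of the 46) also held an M15 replicate 2 peak, close to the 4.78% of all regions. They were chr8:109138618-109140610, described above, where the KTS-minus peaks did not overlap each other and were joined by the M15 peak, and chr8:109129465-109131475, with a max signal of 6 in M15 replicate 2, 17 in KTS-minus replicate 1 and 20 in KTS-minus replicate 2. In neither did the stretches of highest signal meet across libraries.

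At Aldh1a2, the RALDH2 gene, M15 replicate 1 again listed no peak, and its nearest peaks lay 84.5 kb below and 85.6 kb above the window. The 9 peaks of M15 replicate 2 had a max signal of 5 to 9, against 4 to 12 at Cdh1 and 5 to 25 at Snai1, and 3 were above the list's median of 7. The highest, with 9 each, were at 71089767-71090501 and 71189834-71190440, both 31.3% from the top. By total signal they stood 90.5% and 63.0% from the top. Each was met by a peak of KTS-minus replicate 1 (18 and 12) and by none of replicate 2.

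The M15 peaks at Aldh1a2 fell into 2 groups at the sides of the window and 1 peak between. A run of 3 lay from 71038856 to 71042674, and 5 lay from 71164709 to 71198361. From 71090502 to 71164708, a gap of 74.2 kb, M15 replicate 2 had no peak. KTS-minus replicate 1 had 15 peaks in that gap and KTS-minus replicate 2 had 1. The KTS-minus counts differed more here, 2.24-fold between replicates, than at Cdh1 (1.27-fold) or Snai1 (1.08-fold). Replicate 2 had a gap of its own of 58.5 kb, from 71087321 to 71145856, in which replicate 1 listed 12 peaks. All 4 lists were empty from 71101688 to 71121759, a stretch of 20.1 kb.

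The strongest Aldh1a2 peak of KTS-minus replicate 2 was at 71183337-71183882, with a max signal of 45, 1.57% from the top. Its region, chr9:71182519-71183882, also held a peak of 17 in KTS-minus replicate 1 (20.8% from the top) and of 7 in M15 replicate 2 (64.2%). The next of replicate 2 were at 71169269-71170251 (34, 7.46%) and 71046140-71046443 (33, 8.65%). By total signal its strongest stood 10.6% from the top and these next peaks 8.25% and 70.5%. In KTS-minus replicate 1 the strongest were 71083643-71084866 (24, 3.23%), 71132818-71135032 (20, 9.36%) and 71100763-71101687 (19, 12.2%). None of these 3 lay in a region with a peak of another library. That is usual: of this whole list, 28.8% was met by KTS-minus replicate 2 and 11.7% by M15 replicate 2.

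Of 44 merged regions at Aldh1a2, 10 (22.7%) had a peak in both KTS-minus lists, against 18.3% of all regions. M15 replicate 2 had a peak as well in 3 of them (6.82% of the 44, against 4.78% of all regions). The 3 were chr9:71041388-71042946, chr9:71166902-71170251 and chr9:71182519-71183882. The first was weak throughout, with a max signal of 5 in M15 replicate 2, 8 in KTS-minus replicate 1 and 9 in KTS-minus replicate 2, each 96.7% or further from the top. In the second, M15 replicate 2 reached 7, KTS-minus replicate 1 reached 17 and the highest of 3 KTS-minus replicate 2 peaks 34. There the stretches of highest signal of all 3 libraries met, at 71169549-71169823 in M15 replicate 2, 71169138-71169760 in KTS-minus replicate 1 and 71169601-71169629 in KTS-minus replicate 2.

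Snai1 had the largest share of regions in both KTS-minus lists of the 3 loci, 14 of 36 or 38.9%, against 18.3% of all regions. Of the KTS-minus replicate 1 peaks at Snai1, 14 of 26 were met by replicate 2, where 28.8% of the whole list was. Of the replicate 2 peaks, 15 of 24 were met by replicate 1, against 42.6%. The KTS-minus peaks at Snai1 were also denser and wider than in the lists as a whole, with a median width in replicate 1 of 1594.5 bp where the list had 1108 bp, and in replicate 2 of 787.5 bp where the list had 684 bp. The part of density and width in these shares was not tested. At Snai1, 7 regions (19.4%, against 4.78% of all regions) held a peak of M15 replicate 2 and of both KTS-minus lists. In 1 of them, chr2:167412387-167414670, the M15 peak met the KTS-minus replicate 2 peak only through a wide peak of replicate 1.

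Taking the M15 replicate 2 peaks of the 3 loci one by one, 25 of 30 (83.3%) overlapped a peak of at least 1 KTS-minus library, against 76.6% of that whole list. KTS-minus replicate 1 met 19 of 30 (63.3%, against 67.3%) and replicate 2 met 17 (56.7%, against 51.2%). Both KTS-minus libraries met 11 of 30 (36.7%), against 41.9%. By locus, both met 6 of 11 at Snai1, 2 of 10 at Cdh1 and 3 of 9 at Aldh1a2. M15 replicate 1 met 2 of 30 (6.67%), against 10.9%, both at Snai1. Seen from the KTS-minus lists, 19 of 92 peaks of replicate 1 (20.7%) and 17 of 63 of replicate 2 (27.0%) met a peak of M15 replicate 2, against 11.7% and 13.1% of the whole lists. M15 replicate 2 peaks were denser in these windows than on average, as given above, and the part of that in these shares was not tested. The M15 replicate 1 peaks were 2, too few to set beside the 90.4% of that list met by both KTS-minus lists, and both were met.

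In the 3 longer lists the median peak of each gene's window stood between 34.1% and 64.2% from the top. The median peak of M15 replicate 2 stood 45.5% from the top at Snai1, 54.8% at Cdh1 and 64.2% at Aldh1a2. The medians of KTS-minus replicate 1 were 34.1%, 42.9% and 63.4%, and those of replicate 2 were 46.1%, 51.0% and 40.4%, in the same order of loci. Many peaks share a value, so a place counts every peak of the list that is at least as high. Above the median max signal of their list were 0 of 2 peaks in M15 replicate 1 and 14 of 30 in replicate 2, against 48.2% and 45.5% of these lists. In KTS-minus they were 47 of 92 (51.1%, against 42.9%) and 33 of 63 (52.4%, against 46.1%). The Snai1, Cdh1 and Aldh1a2 order of medians in KTS-minus replicate 1 did not return in replicate 2.

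Few of the peaks were among the strongest, but in KTS-minus their share was above that of the whole list. Counting the 6440 peaks with the highest max signal of each list, the length of the shortest, M15 replicate 2 had 1 of its 30 peaks among them (3.33%), against 10.6% of the list. KTS-minus replicate 1 had 3 of 92 (3.26%, against 2.07%) and replicate 2 had 4 of 63 (6.35%, against 2.63%). In M15 replicate 2 the 1 peak was that of the leading Snai1 site. In KTS-minus, 2 and 1 of these peaks were at Snai1, 1 and 2 at Cdh1, and 0 and 1 at Aldh1a2. No region held such a peak in both KTS-minus lists. With 3 and 4 such peaks here this says little, and the share over all regions was not counted.

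**Figure D4:**
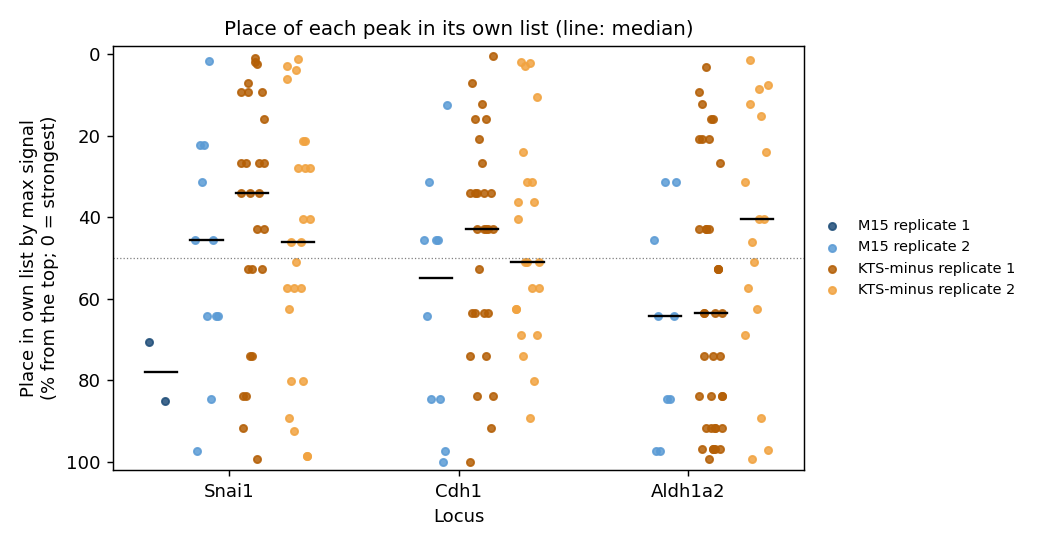
Place of every peak in its own list by max signal, in percent from the top (0 is the strongest; the axis is reversed so that strong peaks are high), by locus and library; black lines are medians and the dotted line marks 50%. The 2 peaks of M15 replicate 1 stood at 70.6% and 85.1%, and the highest M15 replicate 2 peak, at Snai1, stood at 1.62%.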

How the data were processed

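CUT&RUN libraries for WT1 came from M15 (2) and KTS-minus (2), each with its own peak list. Per the submitters' processing notes, the authors worked in build mm9 with SEACR 1.3, a peak caller for CUT&RUN, and with Bowtie2 2.2.6, SAMtools 1.3, bedtools 2.23.0, Picard 2.5.0 and FastQC 0.11.8. Not given in the sources used here are the control and threshold of the calling, the scaling of coverage and the use of the yeast spike-in. The deposited values are each peak's total and max signal, the authors' own coverage, used only to rank peaks within a list. The lists hold no reads, so depth is unknown.

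Coordinates were counted from 1. Peaks sharing at least 1 bp were merged over the 4 lists. Place is the percent of a list with a max signal at least as high. Windows of equal width were laid end to end up to the last peak of each chromosome, and chromosome length was taken to that peak. No genome or gene annotation of mm9 was used, so the planned list of other pathway genes was not analysed here. No test between lines was made. The peaks described were all M15 peaks (singly where they lead a locus, otherwise as ranges), all regions shared by both M15 lists or by all 4, and the 3 strongest KTS-minus peaks per locus and library. The genes, windows and lists were chosen with earlier results of these data known. Alternatives were a 50% reciprocal overlap, the stretch of highest signal, the 50% of each list with the highest total signal, equal lists of 6440 peaks, total signal for ranks, peaks wholly inside a window, and each library left out. Computation used Python 3.11.15, numpy 2.4.6 and pandas 2.3.3, with figures by matplotlib 3.10.9. The merging was tested on simulated lists.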

Additional observations from a re-analysis of the deposited data

How the results depend on the processing

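Counts within 1.5 times of the reported one were taken as unmoved. Of 29 alternative values for the 3 loci together, 19 moved and 10 did not. The cause was not tested. The 2 regions in both M15 lists became 1 with stretches of highest signal, 0 with the 50% of each list highest in total signal and 1 with equal-length lists. Leaving out a library gave 2 to 30, the latter being all regions with a peak of M15 replicate 2. The 31 regions in both KTS-minus lists became 9 with a 50% reciprocal overlap and 4 with stretches only. They became 17 with the stricter threshold and 0 with equal-length lists. Leaving out 1 KTS-minus library gave 63 to 92, which are simply all regions with a peak of the other KTS-minus library. The 2 regions in all 4 lists became 1 with the reciprocal overlap and 0 with stretches only, with the stricter threshold and with equal-length lists, and 2 to 12 with a library left out, where 12 is the number without M15 replicate 1. The ratio of KTS-minus to M15 peaks, 4.84, became 10.1 with the stricter threshold, 2.33 with equal-length lists, and 2.58 to 38.8 with a library left out, the extremes without M15 replicate 1 and without M15 replicate 2. Merging each line's lists alone, an alternative chosen after seeing the data, gave 2 and 30 regions. Ranked by total signal, the median place of KTS-minus replicate 1 peaks moved from 34.1% to 20.5% at Snai1 and from 63.4% to 42.2% at Aldh1a2. Single M15 replicate 2 peaks changed place as well. By total signal the highest at Cdh1 went from 12.5% to 76.5% and the highest at Snai1 from 1.62% to 4.69%. No paired analysis was possible because the results are counts from peak lists and come from no test. Paired by number, as values only, KTS-minus over M15 peaks was 46 for replicates 1 and 2.1 for replicates 2, and nothing in the labels ties replicates of the same number together.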
